A study of Homo sapiens with 6 samples.

Results

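Metallothioneins are small proteins that bind zinc, copper and cadmium through cysteines, and the genes considered here are 6 metallothionein genes with 2 genes of the zinc circuit around them. The rows of the count table whose symbol was *MT1E*, *MT1F*, *MT1G*, *MT1M*, *MT1X*, *MT2A*, *MTF1* or *SLC30A1* were taken, which gave 8 of 60480 gene identifiers. Of these 8 genes, 5 passed the filter on low counts and were among the 19778 genes tested: *MT1F*, *MT1X*, *MT2A*, *MTF1* and *SLC30A1*. *MT1E*, *MT1G* and *MT1M* did not pass it. Both groups were OE-19 cells, an established line from an adenocarcinoma of the esophagogastric junction (AEG), grown in RPMI1640 medium with serum and antibiotics. The control group carried a control knockdown (shControl, named Puro in the table), and the other group carried a knockdown of IGF2BP3 by shRNA (IGF2BP3 KD). IGF2BP3 is an RNA-binding protein that reads the m6A mark on mRNA. Polyadenylated RNA of 3 libraries per group was sequenced. No source used here says whether the 3 libraries of a group came from separate cultures or carried 1 or several shRNAs, so the p-values measure the spread between these libraries, which may be technical.

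When zinc rises in a cell, the zinc-finger factor MTF1 binds metal response elements in promoters and switches on metallothionein genes and *SLC30A1*. Metallothioneins then hold the metal in the cytosol, while SLC30A1 (also called ZnT1) carries zinc out through the plasma membrane. The proteins of the SLC39A (ZIP) family move zinc the other way, into the cytosol. Most other members of the SLC30A (ZnT) family move it out of the cytosol, mainly into vesicles and organelles. Metallothionein genes also answer to glucocorticoids and to oxidative stress, and *MT2A* is the family member with the broadest expression in human tissues.

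*SLC30A1*, the zinc exporter, was lower in IGF2BP3 KD cells, at 87.2 ± 2.16 against 109 ± 4.41 CPM (counts per 1000000 counts of the library, scaled between libraries by edgeR's TMM method; SD, n = 3 per group). It was the only one of the 8 genes called in IGF2BP3 KD at an adjusted p of 0.05. *MT2A* was at 2.19 ± 0.669 CPM in IGF2BP3 KD and 1.42 ± 0.16 CPM in control cells, and *MTF1* at 23.7 ± 1.03 and 20.1 ± 1.78 CPM, and neither passed the threshold after adjustment. *MT1X* and *MT1F* had group means close to each other with wide intervals. *MT1E*, *MT1G* and *MT1M* had between 0 and 9 counts in any library.

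The 6 metallothionein genes lie in 1 cluster on the long arm of chromosome 16. On hg38 with GENCODE v44, *MT2A* covered bases 56608584 to 56609497 of chromosome 16, *MT1E* 56625475 to 56627112, *MT1M* 56632659 to 56633981, *MT1F* 56657731 to 56660698 and *MT1X* 56682470 to 56684196, all on the plus strand. *MT1G* covered 56666730 to 56668065 on the minus strand. *MTF1* covered bases 37809574 to 37859592 of chromosome 1 on the minus strand, with 11 exons in its canonical transcript, and *SLC30A1* covered 211571568 to 211579161 of the same chromosome on the minus strand, with 2 exons. *MT1X* shared 321 exonic bases with a lncRNA on its own strand, which had 0 counts in every library. How reads in the shared bases were assigned is not given in the sources used here. The 0 counts therefore do not show that the lncRNA was silent, and reads of *MT1X* may have been lost. The other 7 genes shared no exonic base with another gene.

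Metallothionein genes are alike in sequence, and share more exact words of 50 bases than words of the length of a read. Of each gene's transcripts with a whole coding sequence, the one with the most cysteine codons was taken. For *MT1E* and *MT1G* this was not the canonical transcript. Each of the 6 coding sequences so chosen held 61 codons, of which 20 (32.8%) encode cysteine. Identity between pairs of coding sequences ran from 88.5% between *MT1F* and *MT1X* to 95.1% between *MT1G* and *MT2A*. Of all words of 50 bases in the canonical *MT1X* transcript, 51.0% also occurred in transcripts of other genes. The share was 19.9% for *MT1G*, 14.6% for *MT1M*, 11.1% for *MT2A*, 10.3% for *MT1E* and 6.12% for *MT1F*, against 0.9% for *MTF1* and 0% for *SLC30A1*. At 150 bases, the length of 1 read, 6.67% of the *MT1X* words and none of the words of the other 7 genes were shared. At 50 bases the genes that shared *MT1X* words included the lncRNA that overlaps it. The part of that lncRNA in the 51.0% and the 6.67% was not separated from that of metallothionein genes and pseudogenes. Reads were trimmed and can be shorter than 150 bases, and how those with several matches were counted is not given in the sources used here. Counts of single metallothionein genes, and of *MT1X* above all, are therefore uncertain to an extent that was not tested.

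The promoters of *MT2A*, *MT1X* and *SLC30A1* are shown because they carry matches to the core of the metal response element, the site that MTF1 binds. RefSeq promoters (GRCh38.p14, 300 bases that span the gene's start) were found for 4 of the 8 genes: *MT1X*, *MT2A*, *MTF1* and *SLC30A1*. They are written 5′ to 3′ on the strand of the gene, and capitals mark TGCACNC or TGCGCNC on either strand, with no overlap between matches.
MT2A, chr16:56608334-56608633, plus strand: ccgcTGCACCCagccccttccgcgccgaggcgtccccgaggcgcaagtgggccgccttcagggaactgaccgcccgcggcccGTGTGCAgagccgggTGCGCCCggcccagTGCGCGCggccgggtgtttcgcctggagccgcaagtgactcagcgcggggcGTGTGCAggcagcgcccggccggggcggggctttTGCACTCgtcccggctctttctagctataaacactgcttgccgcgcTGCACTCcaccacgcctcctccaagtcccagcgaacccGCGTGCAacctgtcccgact
MT1X, chr16:56682220-56682519, plus strand: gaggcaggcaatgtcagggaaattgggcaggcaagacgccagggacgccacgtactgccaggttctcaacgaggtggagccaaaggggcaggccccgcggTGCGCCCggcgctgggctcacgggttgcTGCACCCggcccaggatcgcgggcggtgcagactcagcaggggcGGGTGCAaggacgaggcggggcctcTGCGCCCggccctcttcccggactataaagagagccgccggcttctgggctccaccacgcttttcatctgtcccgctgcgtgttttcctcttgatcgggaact
SLC30A1, chr1:211579112-211579411, minus strand: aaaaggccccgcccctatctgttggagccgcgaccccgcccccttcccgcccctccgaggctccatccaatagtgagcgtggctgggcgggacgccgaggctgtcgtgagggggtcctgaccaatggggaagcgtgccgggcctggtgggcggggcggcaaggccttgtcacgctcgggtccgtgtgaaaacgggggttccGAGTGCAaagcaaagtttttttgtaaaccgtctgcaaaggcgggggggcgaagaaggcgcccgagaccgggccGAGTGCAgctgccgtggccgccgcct

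The *MT2A* promoter held 8 matches, 5 on the gene's strand and 3 on the opposite one, between bases -246 and 36 counted from the gene's start. The *MT1X* promoter held 4 matches, 3 on its own strand, between bases -150 and -47. In both promoters 1 match on the gene's strand lay at almost the same place, from base -54 in *MT2A* and from base -53 in *MT1X*. *SLC30A1* held 2 matches, both on the opposite strand, of which 1 lay upstream at bases -49 to -43 and 1 downstream at bases 24 to 30. *MTF1* held 0. Of 35116 promoters of the same 300 bases, 29.6% held at least 1 match and 0.601% held at least 4. A match is a description of the letters, not evidence of binding in OE-19 cells.

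Total counts per library lay between 58966114 and 69989087 in control and between 53424071 and 63008137 in IGF2BP3 KD cells, with TMM factors of 0.992 to 1.01 and 8.67% to 9.06% of the counts in mitochondrial genes. *IGF2BP3* had 7416, 7363 and 6532 counts in the control libraries and 777, 792 and 794 in the IGF2BP3 KD libraries, as the labels say. Epithelial markers were high, with *KRT8* at 2630 and 2520 CPM and *EPCAM* at 473 and 526 CPM in control and IGF2BP3 KD. In the edgeR test *KRT8* was called lower (log2 fold change -0.06, adjusted p = 0.038) and *EPCAM* higher (0.15, adjusted p = 0.003). These 2 markers show epithelium and not the OE-19 line itself. Of 12 markers of fibroblasts, leukocytes, endothelium and muscle, *COL1A2* and *CD3E* were at 0 in every library, and the 12 summed to 54.4 to 61.4 CPM in control and 83.6 to 84.2 CPM in IGF2BP3 KD. *COL1A1* and *CD68* made up nearly all of that sum and passed the test as higher (log2 fold changes 0.50 and 0.54, adjusted p = 7.8e-04 and 1.9e-04). Without them the other 10 markers summed to 0.526 to 1.13 CPM in control and 0.756 to 1.51 CPM in IGF2BP3 KD. The part of these markers in the results below was not tested.

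*SLC30A1* had 7760, 7581 and 6119 counts in the control libraries and 4577, 5528 and 5527 in the IGF2BP3 KD libraries. On the CPM scale these were 113, 109 and 104 in control and 84.8, 89.0 and 87.7 in IGF2BP3 KD. All 3 IGF2BP3 KD libraries lay below all 3 control libraries. The log2 fold change was -0.32 (SE 0.04, 95% interval -0.41 to -0.23), a fold of 0.801, with an adjusted p of 2.7e-04 in edgeR's quasi-likelihood test. Fits that each omitted 1 library gave -0.35 to -0.29, and the gene was called in 6 of 6 of these fits. Among all genes tested 10.6% were called lower and 9.87% higher. Of the 5 tested genes of the set, 1 was called lower and 0 higher, a count too small to read against that background. In bulk RNA, fewer cells with the transcript and less of it per cell cannot be told apart.

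*MTF1*, the metal-sensing transcription factor, had 1475, 1261 and 1209 counts in control and 1216, 1499 and 1540 in IGF2BP3 KD libraries. These were 21.5, 18.1 and 20.6 CPM in control and 22.5, 24.1 and 24.4 CPM in IGF2BP3 KD. The groups did not overlap, and IGF2BP3 KD replicate 1 lay closest to the control libraries. The log2 fold change was 0.24 (SE 0.08, 95% interval 0.07 to 0.41), a fold of 1.18, with a p of 0.011 before and 0.052 after adjustment in the model fitted across all genes with edgeR. The adjusted p was 0.044 with DESeq2, 0.043 in edgeR when genes needed at least 10 counts in every library, and 0.039 in edgeR without control replicate 1. *MTF1* thus lay at the threshold, and passed it in 1 of 6 fits with a library left out.

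*MT2A* had 104, 86 and 88 counts in control and 85, 130 and 183 in IGF2BP3 KD libraries. On the CPM scale the control libraries were at 1.52, 1.23 and 1.5 and the IGF2BP3 KD libraries at 1.57, 2.09 and 2.90. The lowest IGF2BP3 KD library lay just above the highest control library, and replicates 2 and 3 of IGF2BP3 KD carried the difference. The 95% counting intervals of those 2 libraries overlapped, at 1.26 to 1.95 CPM for IGF2BP3 KD replicate 1 and 1.24 to 1.84 CPM for control replicate 1. The lack of overlap between the groups thus lies within counting error. The log2 fold change was 0.63 (SE 0.26, 95% interval 0.06 to 1.2), a fold of 1.55, with an edgeR p of 0.033 before and 0.12 after adjustment. Leaving out 1 library at a time gave log2 fold changes of 0.37 to 0.81 and adjusted p-values of 0.056 to 0.42, with 0.37 without IGF2BP3 KD replicate 3. *MT2A* and *MTF1* were thus 2 of 5 tested genes that were higher at an unadjusted p under 0.05, where 15.5% of all genes tested were. Groups without overlap were found for 3 of the 5 (*MT2A*, *MTF1* and *SLC30A1*) and for 35.8% of all genes tested. An exact permutation test of 3 against 3 libraries cannot go below a two-sided p of 0.1.

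*MT1X* had 221, 178 and 146 counts in control and 166, 89 and 209 in IGF2BP3 KD libraries. In CPM the control libraries stood at 3.23, 2.56 and 2.49 and the IGF2BP3 KD libraries at 3.08, 1.43 and 3.32. IGF2BP3 KD libraries held both the highest and the lowest value, so the groups overlapped fully. The 95% counting interval of IGF2BP3 KD replicate 2 was 1.15 to 1.76 CPM, below those of replicate 1 (2.63 to 3.58 CPM) and replicate 3 (2.88 to 3.8 CPM). Such exact Poisson intervals cover counting error only. The log2 fold change was -0.08 (SE 0.29, 95% interval -0.71 to 0.55), with an adjusted p of 0.89 by edgeR, an interval that includes changes of the size seen for *SLC30A1* in both directions. Without IGF2BP3 KD replicate 2 the log2 fold change was 0.21, the opposite sign.

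*MT1F* had 70, 39 and 39 counts in control and 45, 43 and 45 in IGF2BP3 KD libraries. The group means were 0.749 ± 0.242 and 0.747 ± 0.0761 CPM (SD, n = 3), and control replicate 1 was the highest library. The log2 fold change was -0.01 (SE 0.34, 95% interval -0.75 to 0.73), with an adjusted p of 0.99 by edgeR. Counts this low leave a difference of the size seen for *MT2A* inside the interval.

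*MT1G* had 0, 8 and 3 counts in control and 5, 3 and 9 in IGF2BP3 KD libraries. *MT1E* had 0 counts in 5 libraries and 4 in IGF2BP3 KD replicate 1. *MT1M* had 0 counts in every library. As a one-sided 95% bound, a count of 0 allows up to 3 counts per library, which is 0.0431 to 0.0556 CPM at these depths. *MT1G* exceeded 3 counts in 3 libraries, of both groups, and its groups overlapped. These 3 genes were not tested, and no fold is given for them. Of 15 further metallothionein genes and pseudogenes in the table, 7 were at 0 in every library, none passed the filter on low counts, and the highest single count was 10. *MT3*, the brain form, was at 0 in every library, and *MT4*, the form of squamous epithelium, had 5 counts in control replicate 1 and 0 in the other 5 libraries.

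**Figure D1:**
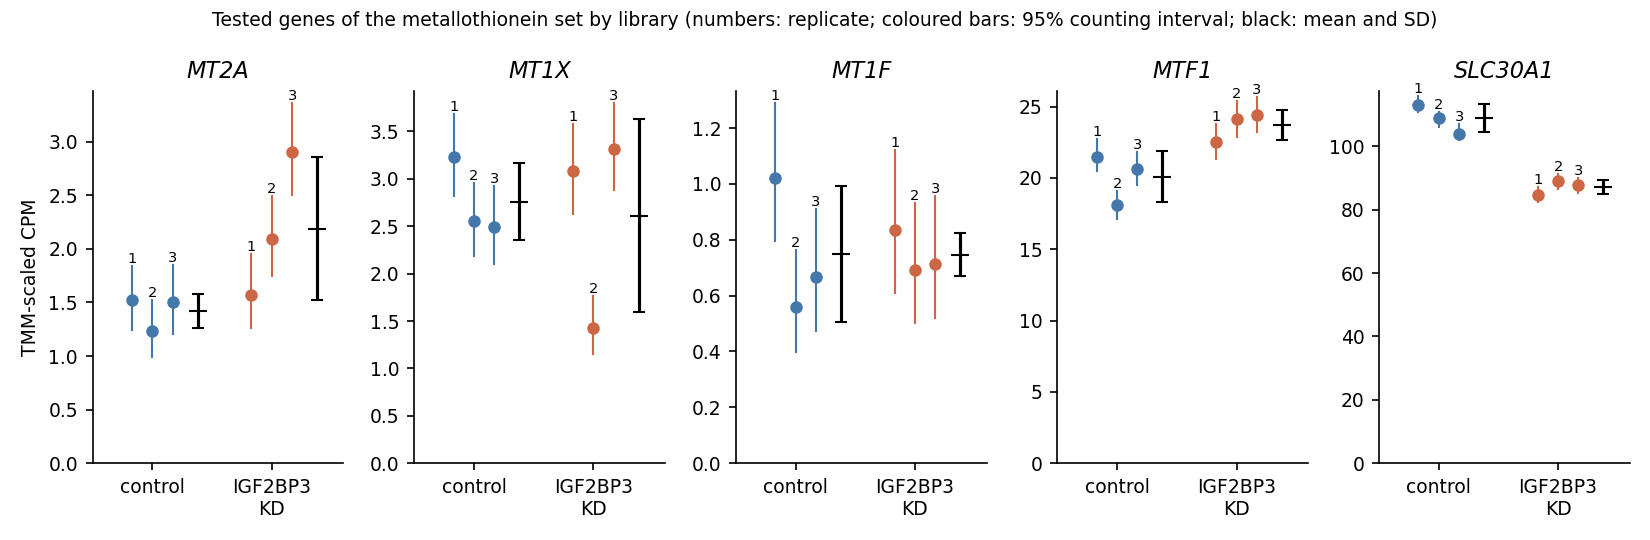
TMM-scaled CPM (linear axis from 0, separate for each gene) of the 5 tested genes in each library, with numbers for replicates, coloured bars for the 95% counting interval and black bars for the mean and SD of 3 libraries. *SLC30A1* sits at 84.8 to 89.0 CPM in IGF2BP3 KD, below the control range of 104 to 113 CPM, while the 2 groups of *MT1X* overlap and IGF2BP3 KD replicate 2 stands lowest, at 1.43 CPM.

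**Figure D2:**
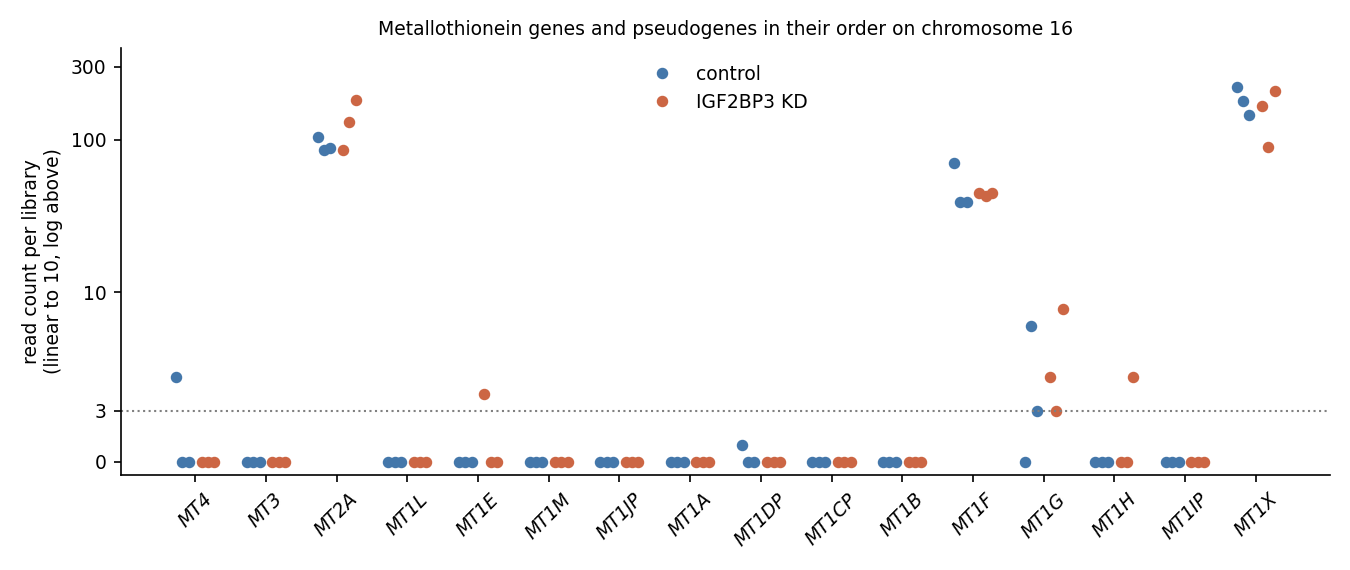
Read counts per library (axis linear to 10 and logarithmic above) of metallothionein genes and pseudogenes in their order along chromosome 16, with 3 control and 3 IGF2BP3 KD libraries each and a dotted line at 3 counts. Only *MT2A*, *MT1F* and *MT1X* have more than 10 counts in any library.

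Per length, *SLC30A1* had the highest level of the 8 genes and 3 metallothionein genes held nearly all metallothionein reads. Values are CPM per 1000 bases of the canonical transcript, a level and not a difference, given as the median over the 6 libraries with the lowest and highest. *SLC30A1* was at 16.4 (14.4 to 19.2), *MT1X* at 6.98 (3.54 to 8.22), *MT2A* at 3.85 (3.07 to 7.23) and *MTF1* at 2.77 (2.28 to 3.07). *MT1F* followed at 1.66 (1.32 to 2.4) and *MT1G* at 0.175 (0 to 0.349), and *MT1E* and *MT1M* had a median of 0. The ranges of *MT1X* and *MT2A* overlapped, with *MT1X* above *MT2A* in 5 of 6 libraries. *MT2A* was above *MTF1*, and *MTF1* above *MT1F*, in 6 of 6 libraries. *MT1G* and *MT1E* overlapped, with *MT1G* above *MT1E* in 5 of 6 libraries. By its mean over the 6 libraries, *MT1X* was above 60.3% of all genes tested, *MT2A* above 53.4% and *MT1F* above 40.1%, against 78.6% for *SLC30A1* and 46.0% for *MTF1*. The transcripts of the metallothioneins were short, at 398 to 746 bases, against 5893 for *SLC30A1* and 7937 for *MTF1*. The level per length makes no allowance for fragment size, for reads with several matches or for bases shared with another gene, as in *MT1X*. The order of short against long genes, and of *MT1X* against *MT2A*, is therefore uncertain.

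The 6 metallothionein genes together had 395, 311 and 276 counts in control and 305, 265 and 446 in IGF2BP3 KD libraries, or 5.77, 4.46 and 4.71 against 5.65, 4.27 and 7.08 CPM. IGF2BP3 KD replicates again held both the lowest and the highest sum. *MT1F*, *MT1X* and *MT2A* made up 97.0% to 100% of these counts. Within the pair of *MT2A* and *MT1X*, *MT2A* took 32.0%, 32.6% and 37.6% of the reads in control libraries and 33.9%, 59.4% and 46.7% in IGF2BP3 KD libraries. *MT2A* had more reads than *MT1X* in IGF2BP3 KD replicate 2 and fewer in the other 5 libraries.

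As a description over 6 libraries that share their group structure, the log2 CPM of *MT2A* had a Pearson r of 0.856 with *MTF1*, -0.0157 with *MT1X* and -0.652 with *SLC30A1*. Among 14288 genes at 1 CPM or more on average, those with the highest r with *MT2A* were *GAS6-AS1* (0.989), *FAT1* (0.988), *POTEI* (0.985), *SLC28A3* (0.982) and *CTB-31O20.4* (0.981). None of these 5 was called between the groups. The 6 points come from 2 groups, and no p is given for these correlations.

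Other zinc carriers were described next, as members of the families that move zinc across membranes. Of 10 other exporter genes (SLC30A2 to SLC30A10 and *TMEM163*), 7 were tested, 0 were called lower and 1 higher, and the median log2 fold change was 0.04 against 0.01 over all genes tested. The shares called over all genes tested were 10.6% lower and 9.87% higher. The called gene was *SLC30A9*, which exports zinc from mitochondria. It was at 117, 108 and 110 CPM in control and 126, 133 and 137 CPM in IGF2BP3 KD (log2 fold change 0.24, SE 0.04, adjusted p = 0.0025 by edgeR). Within this family, *SLC30A1* was thus the sole gene called lower and *SLC30A9* the sole gene called higher, though 2 exporter genes were called higher without IGF2BP3 KD replicate 3 and with a replicate block.

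Of 14 importer genes of the SLC39A family, 12 were tested, 0 were called lower and 5 (41.7%) higher, and the median log2 fold change was 0.19. Over all genes tested, 10.6% were called lower and 9.87% higher, with a median of 0.01. *SLC39A11* rose from 46.0 ± 0.667 to 56.3 ± 2.01 CPM (log2 fold change 0.29, adjusted p = 0.0014). *SLC39A9* rose from 107 ± 2.12 to 128 ± 4.15 CPM (0.26, adjusted p = 4.6e-04), and 69 of its exonic bases overlap *ERH* on the opposite strand. *SLC39A13*, which serves the secretory pathway, rose from 27.3 ± 1.02 to 32.0 ± 0.887 CPM (0.23, adjusted p = 0.015), and lost its call without control replicate 1 and without IGF2BP3 KD replicate 2 (adjusted p up to 0.067). *SLC39A5* had the largest log2 fold change of the list, 1.35 (SE 0.42, adjusted p = 0.041), but at 0.599, 0.33 and 0.478 CPM in control and 1.41, 1.61 and 0.587 CPM in IGF2BP3 KD the groups overlapped and it was called in 2 of 6 fits with 1 library left out. Without IGF2BP3 KD replicate 2, 3 importer genes were called higher in place of 5, and without control replicate 1, 1 was called lower.

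**Figure D3:**
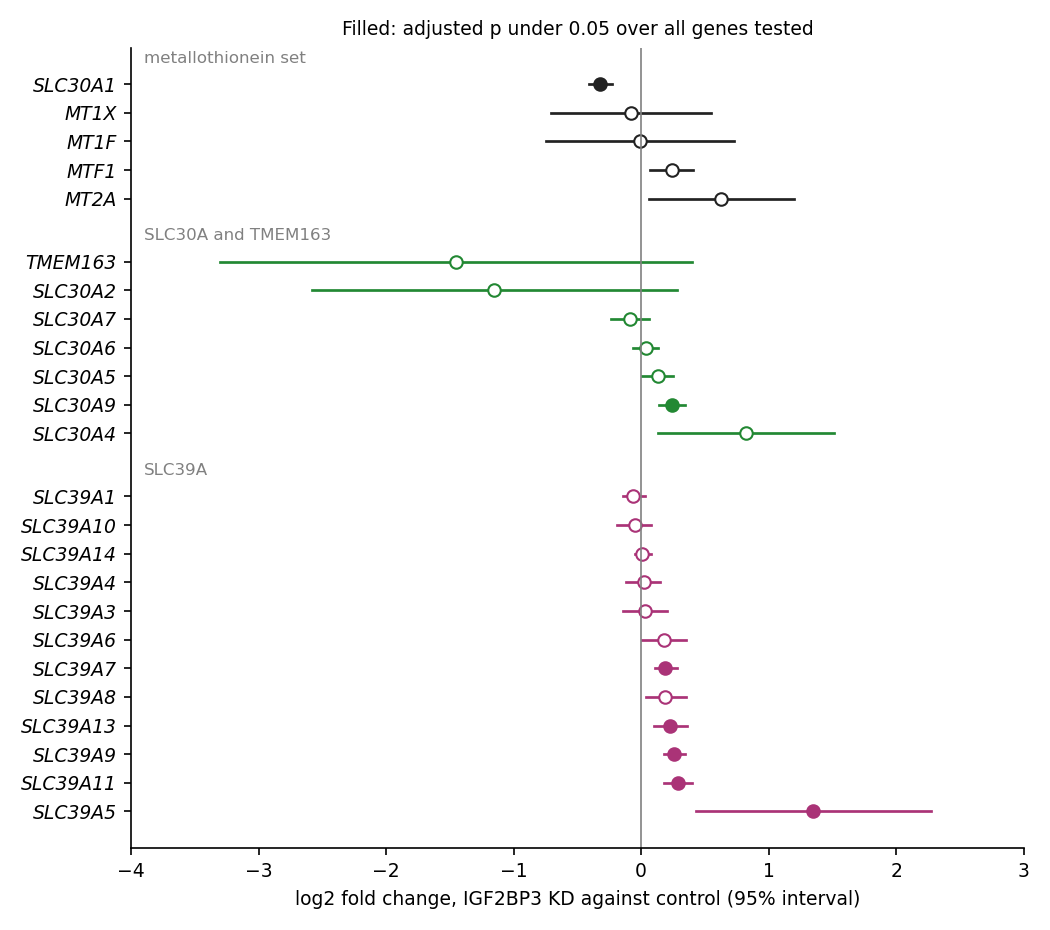
Log2 fold change of IGF2BP3 KD against control with its 95% interval for the tested metallothionein set, the other SLC30A genes with *TMEM163*, and the SLC39A genes, with filled points for an adjusted p under 0.05. *SLC30A1* at -0.32 is the only filled point left of 0, and *SLC30A9* at 0.24 and 5 SLC39A genes between 0.19 and 1.35 lie right of it.

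Copper is the other physiological metal of metallothioneins. Of 16 tested genes of copper handling, 2 were called lower and 3 higher, and the median log2 fold change was 0.02. The shares called over all genes tested were 10.6% lower and 9.87% higher. *STEAP4*, a metalloreductase, fell from 8.40 ± 1.26 to 4.83 ± 1.02 CPM (log2 fold change -0.80, adjusted p = 0.0065), and shares exonic bases with a gene on the opposite strand. *ATP7B*, a copper-transporting ATPase, rose from 32.1 ± 2.57 to 43.1 ± 1.4 CPM (0.42, adjusted p = 8.8e-04). *STEAP3*, an endosomal metalloreductase, and *CCS*, the chaperone that loads copper into SOD1, each had a log2 fold change of 0.26 (adjusted p = 0.0085 and 0.028). *STEAP3* was called in 6 of 6 fits with 1 library left out, but *CCS* in 1 of 6, the one without control replicate 2 (adjusted p = 0.022 to 0.12 over the 6 fits). Without IGF2BP3 KD replicate 2 or replicate 3, 1 copper gene was called lower in place of 2.

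Of 14 genes known to answer to metals or to the oxidative and heat stress that metals cause, 3 (21.4%) were called lower and 6 (42.9%) higher, and the median log2 fold change was 0.13. Over all genes tested, 10.6% were called lower and 9.87% higher. *HSPA1A* and *HSPA1B*, which encode the inducible HSP70, rose from 115 ± 6.01 to 182 ± 2.8 CPM and from 118 ± 6.62 to 182 ± 4.31 CPM (0.66 and 0.63, adjusted p = 1.3e-06 and 2.4e-06). These are near-identical copies, so the split of reads between them is uncertain and their calls are not independent. *HMOX1*, heme oxygenase 1, rose from 23.5 ± 1.47 to 31.7 ± 1.61 CPM (0.43, adjusted p = 9.7e-04). *TXNRD1*, the cytosolic thioredoxin reductase, fell from 599 ± 11.9 to 449 ± 11.8 CPM (-0.42, adjusted p = 2e-06).

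Glucocorticoids are another known inducer of metallothioneins. Of 12 genes of the glucocorticoid response, the receptor gene among them, 10 were tested. In each direction 2 of these were called, and the median log2 fold change was 0.00. Over all genes tested, 10.6% were called lower and 9.87% higher. *CEBPD*, a transcription factor, and *KLF9*, a glucocorticoid-induced repressor, were higher (0.40 and 0.33, adjusted p = 0.012 and 0.0033). *GLUL*, glutamine synthetase, and *ERRFI1*, an inhibitor of EGFR, were lower (-0.22 and -0.19, adjusted p = 0.0017 and 0.0037). The number called higher was 4 without control replicate 1 and 1 without control replicate 3, where *CEBPD* lost its call.

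Of 14 genes next to the metallothionein cluster on chromosome 16, 13 were found in the table and 11 were tested, of which 3 were called lower and 1 higher, and the median log2 fold change was 0.06. The shares called over all genes tested were 10.6% lower and 9.87% higher. *NUDT21*, a cleavage factor of mRNA 3′ end processing, rose from 117 ± 8.37 to 170 ± 3.49 CPM (0.54, adjusted p = 1.7e-05), with 2724 of its exonic bases shared with another annotated gene on its strand. *OGFOD1*, a prolyl hydroxylase of the ribosome, fell from 36.1 ± 1.36 to 27.8 ± 0.0934 CPM and *NUP93*, a nucleoporin, fell from 36.4 ± 3.17 to 27.9 ± 0.376 CPM (both -0.38, adjusted p = 6.5e-04 and 0.0022). DESeq2 called 2 of these genes higher in place of 1. Per 1000 bases of transcript, the mean level over 6 libraries was 32.7 for *NUDT21*, 6.97 for *OGFOD1* and 3.9 for *NUP93*, against 6.64 for *MT1X*, 4.5 for *MT2A* and 0 for *MT1M* on the same scale.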

How the data were processed

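RNA-seq counts of 3 control and 3 IGF2BP3 KD libraries of OE-19 cells were analysed. Per the labels and the study's methods, the authors prepared polyadenylated RNA with a strand-specific kit, sequenced paired reads of 150 bases, trimmed them with fastp, aligned them to hg38 with HISAT2 and deposited featureCounts counts per gene without normalization. Tool versions, annotation and strand setting are not given in the sources used here. Nor is the treatment of reads with several matches or of reads that overlap several genes. 132 repeated entries of 44 identifiers were left out. Chi-square per degree of freedom between libraries of a group was at least 9.86, so none duplicated another.

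The tests used edgeR 4.0.16 (R 4.3.3) with TMM scaling, its filterByExpr filter (minimum count 10, minimum total 15) and its quasi-likelihood functions glmQLFit and glmQLFTest. P-values were adjusted by Benjamini-Hochberg over 19778 genes, with a threshold of 0.05. CPM, sums and promoter matches were computed from the counts and from RefSeq and GENCODE v44 with Python 3.11.15. The test was tried on simulated data with the same dispersion for all genes and fold changes larger than any seen for the 8 genes. That trial does not speak to smaller changes or to changes in genes of low count. The genes and lists were chosen with earlier results of these data known. Named genes are all 8 genes, at most 4 called genes per list by absolute log2 fold change, and the 5 genes most like *MT2A*. Cell type markers are named besides, and 1 gene that the rule names is not reported here. Alternatives were each library left out, a replicate block, DESeq2 1.42.0, RLE size factors in edgeR, all genes with a count kept, and a stricter filter of at least 10 counts per library.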

Additional observations from a re-analysis of the deposited data

How the results depend on the processing

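*SLC30A1* stayed lower and past the threshold, and 0 tested metallothionein genes passed it, under every alternative run. *MTF1* was the gene that crossed it, so the number of the 8 genes called higher was 1 in place of 0 with DESeq2 and with at least 10 counts in every library, and 0 to 1 with 1 library left out, where the 1 came without control replicate 1. The log2 fold change of *MT1F* changed sign, to 0.03 with the replicate block and to between -0.18 and 0.28 with 1 library left out, and that of *MT1X* lay between -0.30 and 0.21 with 1 library left out. The cause of these changes was not tested. Same-numbered libraries did not deviate together (correlations -0.00173, -0.0315 and 0.00915), so the numbers give no paired design. The replicate block called 2026 genes lower and 1875 higher, against 2088 and 1953 without it, and the same number of the 8 genes in each direction. Of the other counts over the gene lists, 145 stayed within 1.5 times the main count and 9 did not. The 145 include counts of 0 against 0, among them those of the 15 other metallothionein genes, of which 0 were tested in the main fit. Such counts could hardly change and say little about stability. The metallothionein counts were low, between 0 and 221 per library, which limits how small a difference could be called. The cause of the low counts was not tested.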
